A study of Bos taurus and Bubalus bubalis with 9 samples.

Results

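The insulin receptor gene INSR and the insulin-like growth factor 1 receptor gene IGF1R were followed here as sources of circular RNAs (circRNAs). Members were all back-splice junctions that the deposited circRNA tables assign to either symbol, together with the transcripts of both genes in the deposited buffalo mRNA table. This gave 10 of the 24221 distinct junctions, 6 from INSR and 4 from IGF1R. The cattle table listed all 10 of them among 18535 rows. The buffalo table listed 2 INSR junctions among 10701 rows and no row for IGF1R. Both genes were chosen by junction levels of these same libraries, above all the high RPM of an INSR junction in buffalo muscle, so those levels are given as a description only.

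The samples were longissimus dorsi muscle of 3 Xinyang buffaloes, which the labels call low in intramuscular fat (IMF), and longissimus dorsi muscle and back subcutaneous fat of 3 Nanyang cattle, which they call high in IMF. All animals were weaned at 3 months, castrated at 6 months, fattened from 18 months and slaughtered at 30 months of age. The buffaloes and the cattle came from separate farms. The report rests on 9 libraries, 3 per group, and each library is 1 animal. Muscle and fat were taken from the same 3 cattle, but the labels do not say which muscle library belongs to which fat library. The study compared both species and tissues to look for differences behind the low IMF of buffalo.

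The insulin receptor and the IGF1 receptor are closely related tyrosine kinases of the cell surface. Insulin acts through INSR to drive glucose uptake and lipid storage in muscle and fat, and IGF1 and IGF2 act through IGF1R on growth and differentiation. Bound receptors phosphorylate adaptors such as IRS1, which pass the signal to PI3 kinase, PDPK1, AKT and MTOR, or through SOS1 and RAS to BRAF and the MAP kinases. A circRNA is made when a downstream splice donor joins an upstream splice acceptor of the same transcript. Reads across that back-splice junction are the evidence for it. A junction level does not measure the receptor protein or the linear mRNA.

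Levels are given in the deposited unit, RPM, which is junction reads scaled to a common library size. Values in each column were whole multiples of the RPM of 1 read, which gave whole reads. A buffalo library held 4472 to 6122 junction reads, which sum to 74.5 to 96.1 RPM. Cattle libraries held 15440 to 27141 reads (408 to 642 RPM) from muscle and 12042 to 21053 reads (327 to 566 RPM) from adipose tissue. As a check of the tissue labels, 10 skeletal muscle markers such as NEB and TTN were examined as circRNA hosts. Their summed RPM was 11.9 to 13.7 in buffalo muscle and 24.1 to 32.7 in cattle muscle, against 0 to 0.0269 in cattle adipose tissue. Of the 10 markers, 6, 7 and 1 had junction reads in these groups. Most of the buffalo sum came from 1 NEB junction, with a mean of 10.3 RPM. The 8 adipocyte markers summed to 0.489 to 0.669 RPM in cattle adipose tissue, 0.0265 to 0.0840 in cattle muscle and at most 0.0157 in buffalo muscle. Only 4, 2 and 1 of the 8 had junction reads in these groups. Endothelial markers (4 genes) ranged from 0 to 0.271 RPM in cattle adipose tissue and from 0.0946 to 0.140 in cattle muscle, and fibroblast markers (4 genes) from 0.103 to 0.161 and from 0 to 0.0710. Leukocyte and liver markers (4 genes each) stayed at or below 0.0560 RPM in every library, and none of these 4 lists had a junction read in buffalo muscle. Linear transcripts of these lists were present there. Their summed FPKM was 491 to 670 for fibroblast, 64.3 to 75.2 for endothelial, 5.32 to 10.1 for leukocyte and 0.285 to 1.39 for liver markers. Adipocyte markers had 103 to 152. Few or no junction reads are thus not a lack of these transcripts. The part of other cell types in the results was not tested. In these bulk tissues, fewer cells of a type and less RNA per cell cannot be told apart.

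INSR circular RNA came almost entirely from a single junction. It lies on chromosome 7 of the cattle genome UMD3.1 from 17401915 to 17402466, on the minus strand, and is typed as exonic for gene ENSBTAG00000012687 and transcript ENSBTAT00000016858. The span is 552 bp. Only 2.64% of the 16223 exonic junctions of the cattle table had a shorter span, and their median was 10292 bp. The same junction, with identical ends, was listed in both tables. The exon number is not given in the files.

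In buffalo muscle 1 to 3, the 552 bp junction had 0.669, 0.864 and 0.850 RPM, from 44, 55 and 51 reads. In cattle muscle 1 to 3 it had 1.48, 1.51 and 2.24 RPM, from 56, 64 and 80 reads. In cattle adipose tissue 1 to 3 it had 0.896, 0.726 and 0.489 RPM, from 33, 27 and 19 reads. Every cattle muscle library lay above every cattle adipose library, whereas buffalo muscle lay within the range of cattle adipose tissue. Cattle muscle had a mean of 1.75 ± 0.43 (SD, n = 3), and the means of cattle adipose tissue and buffalo muscle were 0.704 ± 0.204 and 0.794 ± 0.109. The highest level was thus that of cattle muscle, and the other 2 groups overlapped. The buffalo and cattle tables were made separately, so this order across species is a description without a test.

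The order changed when the junction was expressed as a share of all junction reads of its library. The share was 0.831%, 0.898% and 1.14% in buffalo muscle 1 to 3. Shares of 0.363%, 0.236% and 0.365% were found in cattle muscle 1 to 3, and of 0.274%, 0.128% and 0.134% in the 3 adipose libraries. The buffalo shares were all above the cattle shares, and cattle muscle and adipose tissue overlapped on this scale. As a measure of counting precision, the lowest buffalo share had a 95% Wilson interval of 0.619% to 1.11%, and the highest cattle share one of 0.294% to 0.454%. INSR was chosen for its level in these buffalo libraries, so no comparison rests on the intervals. They cover counting error only, since the reads carry no molecular identifiers. The junction ranked 3, 6 and 3 by RPM in buffalo muscle 1 to 3. The 3 cattle muscle libraries gave it ranks of 16, 26 and 17, and the 3 adipose libraries ranks of 18, 63 and 60.

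**Figure D1:**
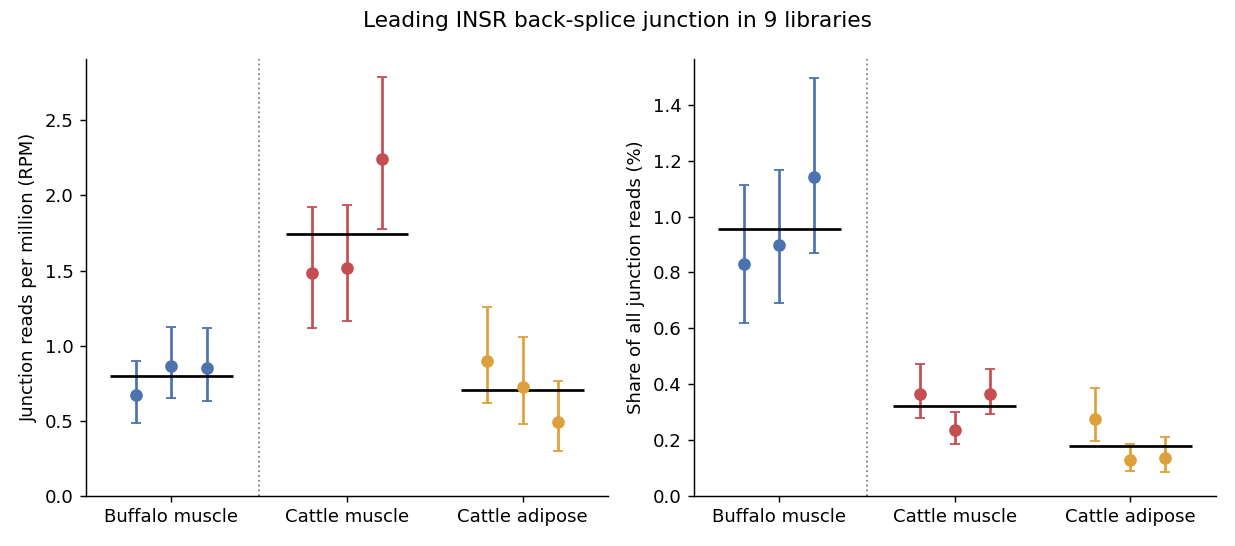
Level of the leading INSR junction in each library as RPM with exact 95% Poisson intervals (left) and as a percent of all junction reads with 95% Wilson intervals (right), points being libraries in the order of their replicate number, black lines group means and the dotted line the border between separately made tables. Cattle muscle was highest by RPM, from 1.48 to 2.24, while buffalo muscle was highest by share, from 0.831% to 1.14%.

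Side by side, the mean RPM of this junction was 2.20 times as high in cattle muscle as in buffalo muscle. For comparison, 53 junctions had identical ends and at least 20 reads in each of these groups. The median of the same ratio over them was 3.65, and 13 of them (24.5%) had a lower ratio than INSR. INSR was chosen for its level in buffalo muscle, and all 53 had to pass a read minimum there. The place of INSR among them is therefore a description only. The total junction RPM differed 6.62 times. Reads of buffalo had been aligned to the cattle genome, and the part of this in the ratios was not tested.

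The other 5 INSR junctions of the cattle table held 6 reads in all, and each of them was seen in 1 muscle library only. Along the gene they began 74.6 kb or more downstream of the 552 bp junction and reached to 114.6 kb from its 5′ end. Their spans ran from 275 to 22225 bp. The junction from 17305124 to 17327348 had 2 reads in cattle muscle 1. Those from 17298321 and from 17306166 to the shared end 17306440 had 1 read each in cattle muscle 2. The junction from 17287905 to 17292547 had 1 read in cattle muscle 1, and one from 17291053 to 17292544, whose end differs by 3 bp, had 1 read in cattle muscle 3. The buffalo table also lists the junction from 17287905 to 17292547, at 0 in all 3 buffalo muscle libraries.

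The 552 bp junction therefore held 94.9%, 97.0% and 98.8% of the INSR junction reads in cattle muscle 1 to 3. It held 100% in each cattle adipose library and in each buffalo muscle library. The difference between cattle muscle and adipose tissue was -3.12 percentage points (p = 0.1 in a two-sided exact permutation test, which cannot go lower with 3 against 3). The groups did not overlap, but the 79 INSR reads of adipose tissue allow a share of other junctions of up to 3.80%, and the pooled share in cattle muscle was 2.91%. A difference was thus not detectable at this depth. A leading junction of this weight was uncommon among cattle hosts but less so in buffalo muscle. INSR was chosen for the level of this junction, so its place among hosts is a description only. Of the 476 hosts with at least 50 junction reads over the 6 cattle libraries, 28 (5.88%), INSR included, had at least the share that INSR had on its leading junction, 97.9% of 285 reads. The median share was 53.6%. The median host of this set had 9 junctions and INSR had 6. In buffalo muscle, 5 of the 28 such hosts (17.9%) had all reads on 1 junction, INSR among them, and the median share was 74.2%.

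**Figure D2:**
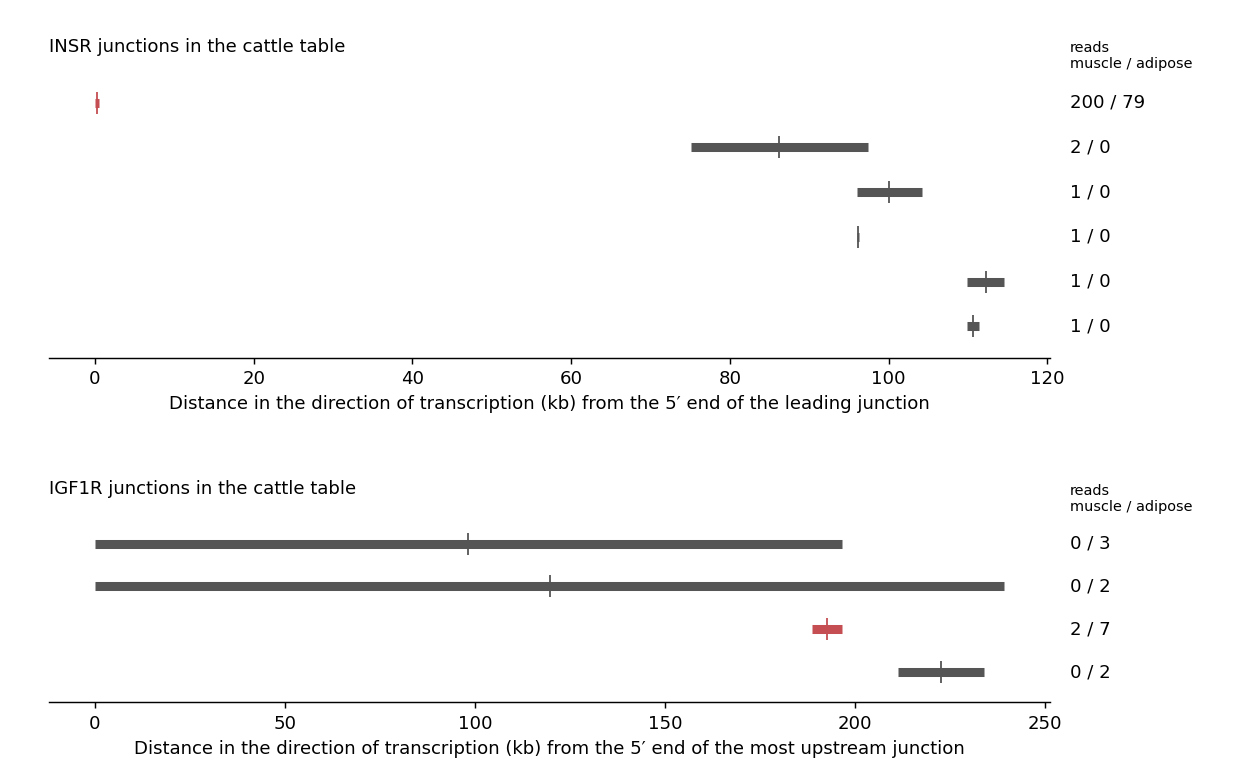
Position of each INSR and IGF1R junction of the cattle table, drawn to scale in kb along the direction of transcription, with the leading junction of each gene in red and the reads summed over the 3 muscle and the 3 adipose libraries at the right. The INSR reads sit at 1 short junction (200 and 79 reads) and the IGF1R reads are spread over 4 junctions with at most 7 reads in a tissue.

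IGF1R gave few circular reads. Its 4 junctions lie on chromosome 21 of UMD3.1, on the plus strand, and belong to gene ENSBTAG00000021527 and transcript ENSBTAT00000028690. The leading junction, from 8208823 to 8216590, is exonic and spans 7768 bp. In muscle only cattle 3 had it, at 0.0560 RPM (2 reads). The 3 adipose libraries had 0, 0.0807 and 0.103 RPM (0, 3 and 4 reads). The muscle and adipose values overlapped at 0.

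Of the other IGF1R junctions, those from 8020127 to 8216590 and from 8020127 to 8259382 share their start and are typed as exon and intron. They had 3 and 2 reads in adipose tissue. The exonic junction from 8231383 to 8253940 had 2 reads there. None of the 3 had a read in muscle. The 8216590 end is shared by the leading junction and the first of these.

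Summed over its junctions, IGF1R had 0, 0 and 0.0560 RPM in the 3 muscle libraries and 0.0271, 0.242 and 0.103 RPM in the 3 adipose libraries. That is 2 reads against 14. The groups overlapped, because cattle muscle 3 lay above cattle adipose tissue 1. A count of 0 reads allows up to 0.0794 RPM in cattle muscle 1 and 0.0710 RPM in cattle muscle 2. Over pooled reads, adipose tissue was 7.18 times as high as muscle, with an exact 95% counting interval of 1.65 to 65.1 that leaves out the spread between animals. Without cattle adipose 2, which holds 9 of the 14 reads, the ratio was 3.82 with an interval of 0.626 to 40.2. Without cattle muscle 3 no muscle read remained.

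Cattle muscle and adipose tissue were then compared with limma on log2(RPM + 1), fitted to every junction of the cattle table with at least 2 reads in at least 3 of the 6 libraries. The question was whether circular RNA of the receptors differs between both tissues. Of 1917 junctions tested, 65 (3.39%) passed an adjusted p of 0.05, with 61 (3.18%) higher and 4 (0.209%) lower in muscle. With each library scaled to the same junction total, 65 were higher and 28 lower. Of the 10 member junctions, 2 passed the filter on low values, namely the leading ones of INSR and IGF1R, and neither was called.

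The leading INSR junction was higher in muscle by 0.68 on the log2(RPM + 1) scale (SE 0.29, 95% interval 0.09 to 1.27), with an adjusted p of 0.17 in limma with Benjamini-Hochberg adjustment. The ratio of the mean RPM was 2.48. RPM values of muscle and adipose tissue did not overlap for this junction, as for 23.3% of the junctions tested, with every muscle value higher for 15.3% and lower for 7.93%. With a pseudocount of 0.1 the difference was 1.21. The call depended on the test, since DESeq2 on the recovered reads gave an adjusted p of 0.0497 with a log2 fold change of 1.28, and limma without the mean-variance trend gave 0.040. These called 6.73% and 3.23% of junctions. With edgeR and TMM factors it was 0.063, where 8.56% of junctions were called. Over its alternatives the adjusted p ran from 0.040 to 0.60. Scaled to equal junction totals, the difference was 0.47 with an adjusted p of 0.24.

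For INSR junctions summed per library, cattle muscle 1 to 3 had 1.56, 1.56 and 2.27 RPM, against 0.896, 0.726 and 0.489 in adipose tissue. The fit to 1837 host genes gave a difference of 0.71 (SE 0.29, 95% interval 0.15 to 1.28; limma, adjusted p = 0.14), and INSR was not called. In that fit 101 hosts (5.5%) were called, 79 (4.3%) higher and 22 (1.2%) lower in muscle, or 74 and 62 after scaling to equal junction totals. With edgeR and TMM factors on the recovered reads, INSR had a log2 fold change of 1.33 with an adjusted p of 0.019, where 8.66% of hosts were called. DESeq2 gave 1.33 with an adjusted p of 0.024, where 7.29% of hosts were called. The limma call also changed without the mean-variance trend (adjusted p = 0.032) and with the replicate number as a block (adjusted p = 0.028), although the labels do not say that this number marks the animal. With junction totals alone, without TMM factors, edgeR gave 0.91 with an adjusted p of 0.17. The direction was the same in all 15 alternatives.

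The leading IGF1R junction differed by -0.06 between muscle and adipose tissue (SE 0.04, 95% interval -0.15 to 0.03; limma, adjusted p = 0.54). The pseudocount of 1 leaves little room for change at 9 reads, and with 0.1 the difference was -0.41. The sum over IGF1R junctions differed by -0.14 (SE 0.07; limma, adjusted p = 0.26). With edgeR and TMM factors the sum had a log2 fold change of -2.54 with an adjusted p of 0.29. IGF1R was not called in any alternative that gave an adjusted p.

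**Figure D3:**
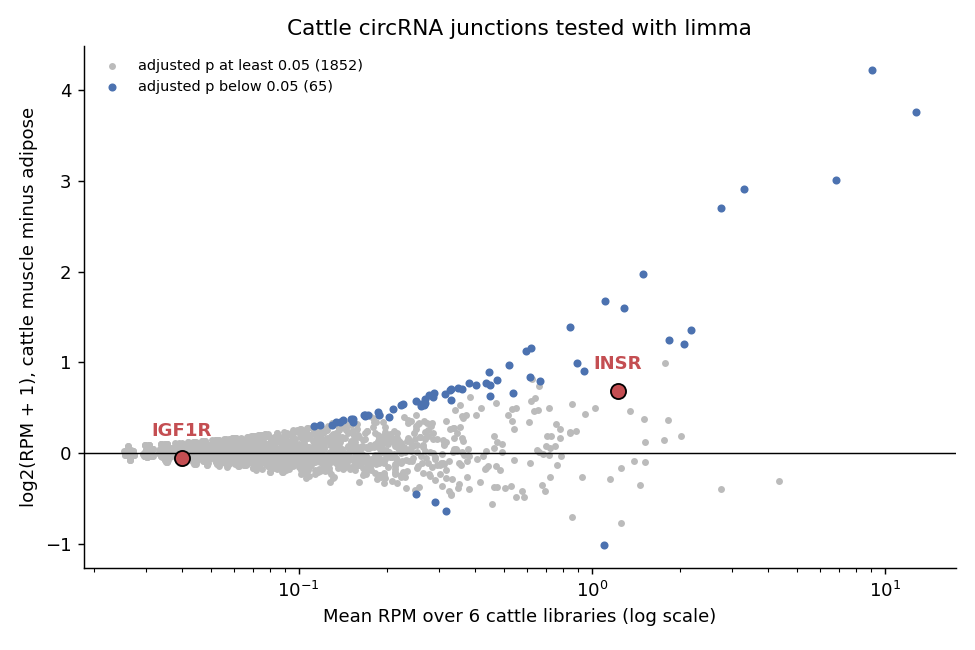
Difference in log2(RPM + 1) between cattle muscle and cattle adipose tissue (y axis) against the mean RPM of the 6 libraries (x axis, log scale) for the 1917 junctions tested, each point being a junction and blue points those called by limma. The INSR junction stood at 0.68 and the IGF1R junction at -0.06, both among the junctions not called.

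As a description of likeness, the profile of each leading junction over the 6 cattle libraries was compared with those of 1807 junctions of other named hosts by Pearson's r of log2(RPM + 1). For INSR the nearest were junctions of the transcription factor gene FOXJ3 (chromosome 3, 104523997 to 104536697; r = 0.985, 139 reads), the kinase gene HIPK3 (chromosome 15, 64742620 to 64745544; r = 0.983, 55 reads) and the ubiquitin ligase gene TRIM2 (chromosome 17, 4361725 to 4367086; r = 0.979, 17 reads). All 3 junctions had higher means in muscle, for FOXJ3 1.07 RPM against 0.152 in adipose tissue. This need not hold for a whole gene. Summed over junctions, HIPK3 had 2.79 RPM in muscle and 3.50 in adipose tissue, and FOXJ3 had 1.74 and 0.522. As many as 106 junctions had r above 0.9 with INSR, and the points share the split into both tissues. For IGF1R the nearest were junctions of TMEM131 (r = 1), FOCAD (r = 0.993) and LMTK2 (r = 0.982). The first rests on 9 reads, and its RPM values were the same as those of the IGF1R junction in every library.

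The linear transcripts of both receptors were listed in buffalo muscle. INSR (ENSBTAT00000016858) had an FPKM of 37.6, 34.9 and 30.0 in buffalo muscle 1 to 3, and IGF1R (ENSBTAT00000028690) had 9.66, 12.3 and 14.4. INSR was above IGF1R in each animal, and the values of both genes did not overlap. On the log2(FPKM + 1) scale, which is per length of transcript, the means were 5.13 ± 0.16 (SD, n = 3) and 3.70 ± 0.27. The difference between both genes was 1.86, 1.44 and 1.01 in the 3 animals, with a mean of 1.43 ± 0.42. INSR ranked 2140 and IGF1R 5066 among 19917 listed transcripts. Depth behind an FPKM value is unknown, and no cattle mRNA table was analysed here.

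Insulin and IGF signalling was described with a list of 77 genes from ligands to effectors. As circRNA hosts, 26 of them had a junction read in buffalo muscle and 30 were listed for cattle. In buffalo muscle INSR was the highest host of the list at 0.794 ± 0.109 RPM. The glycogen synthase gene GYS1 followed with 0.135 ± 0.110 RPM and TBC1D4, a regulator of glucose transporter traffic, with 0.124 ± 0.090 RPM. ENPP1, whose product can inhibit the insulin receptor, had 0.0731 ± 0.0741 RPM, and the transcription factor gene FOXO3 had 0.0677 ± 0.0548 RPM. The values of these other 4 genes overlapped.

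In cattle muscle INSR was again the highest host of the list, with 1.80 ± 0.41 RPM over all its junctions. Among the other high hosts were PDPK1, the kinase that activates AKT (0.827 ± 0.407), RICTOR of MTOR complex 2 (0.707 ± 0.224) and the AKT phosphatase gene PHLPP1 (0.452 ± 0.106). In cattle adipose tissue INSR had 0.704 ± 0.204 RPM, RICTOR 0.461 ± 0.094, the TBC1D4 relative TBC1D1 0.309 ± 0.083 and PHLPP1 0.294 ± 0.103.

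Between cattle muscle and adipose tissue, 21 of the 77 genes could be tested as hosts and none was called by limma, beside 5.5% of all hosts tested. At an unadjusted p below 0.05 there were 7, beside 16.9% of all hosts tested. The median difference of the 21 was 0.02 and that of all 1837 hosts was 0.00013. Muscle lay entirely above adipose tissue for 6 of the 21 and entirely below for none, beside 12.5% and 8.27% of all hosts tested. The 6 were INSR, PDPK1, ENPP1, TBC1D4, GYS1 and FOXO3. INSR had the largest positive difference of the list, 0.71. PDPK1 had 1.30, 0.568 and 0.616 RPM in the 3 muscle libraries and 0.326, 0.376 and 0.154 RPM in the 3 adipose libraries, a difference of 0.49 (SE 0.19; limma, adjusted p = 0.12). INSR and PDPK1 were the 2 list genes of 21 called by edgeR (adjusted p = 0.012 for PDPK1), beside 8.66% of all hosts. DESeq2 called INSR only, beside 7.29% of all hosts.

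**Figure D4:**
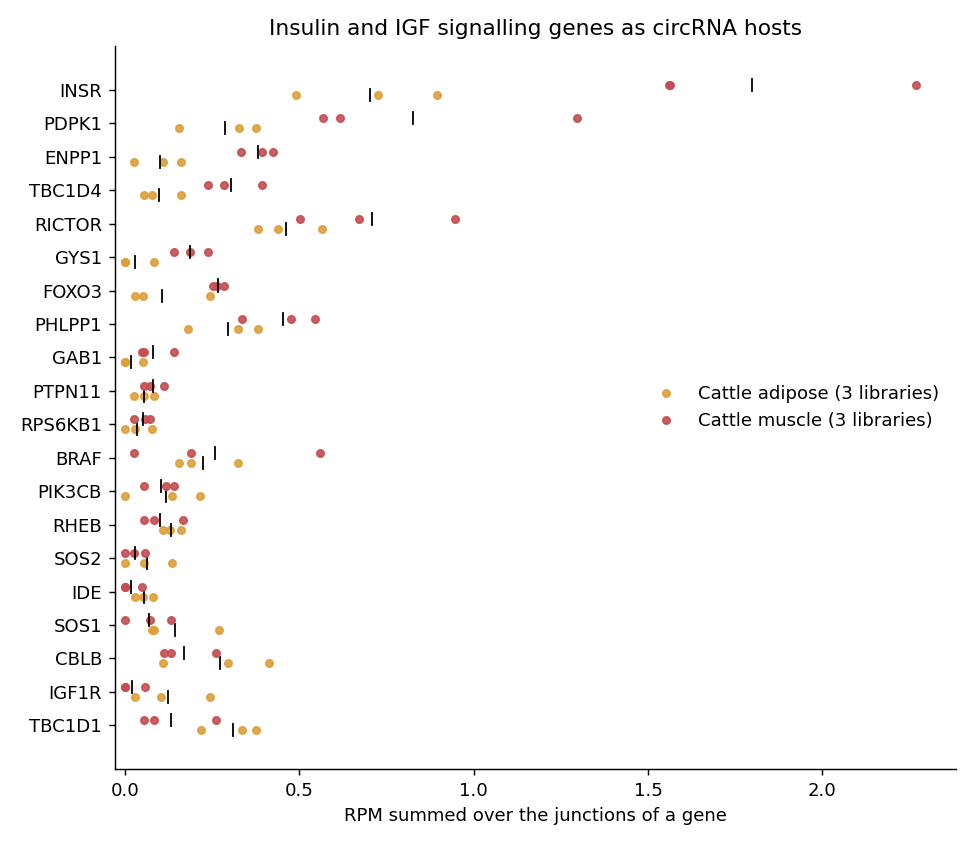
Junction RPM summed per gene in the 3 cattle muscle (red) and 3 cattle adipose (yellow) libraries for 20 of the 21 tested genes of insulin and IGF signalling, ordered by the difference in log2(RPM + 1), with black bars for group means. INSR is at the top with muscle entirely above adipose tissue.

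Transcripts of 41 list genes could be named in the buffalo mRNA table, 47 transcripts in all. Their median log2(FPKM + 1) in buffalo muscle was 4.15, beside 1.98 over all listed transcripts, which include those listed at 0. GYS1 was highest with 7.66 ± 0.11 (SD, n = 3), followed by the binding protein gene IGFBP7 (6.67 ± 0.16) and the regulatory PI3 kinase subunit gene PIK3R1 (6.20 ± 0.22). The adaptor genes GRB10 and IRS1 had 6.18 ± 0.65 and 6.15 ± 0.42, and their values overlapped with those of PIK3R1. INSR stood at place 12 and IGF1R at place 31 of the 47. The ligand gene IGF2 had 5.42 ± 0.27, with values overlapping those of INSR, and the scavenging receptor gene IGF2R had 3.86 ± 0.14, overlapping with IGF1R. Names came from circRNA hosts and from the study's own gene tables, so these 41 are not a random part of the list.

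**Figure D5:**
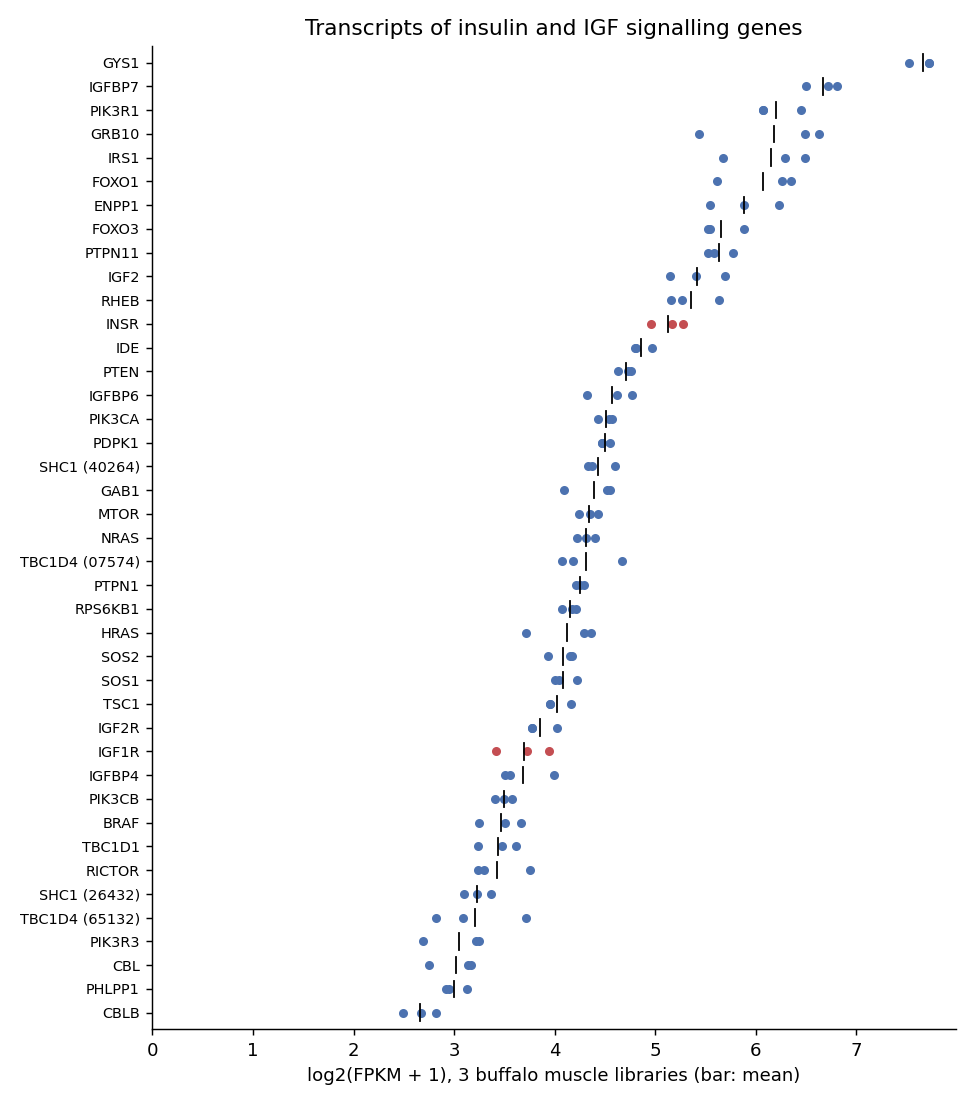
Transcript levels as log2(FPKM + 1) in the 3 buffalo muscle libraries (points) with their mean (black bar) for 41 of the 42 named transcripts of insulin and IGF signalling with a mean of at least 1, receptors in red and the last digits of the identifier given where a gene has several transcripts. INSR (5.13) stood above IGF1R (3.70) in each animal, and the 5 transcripts below 1 are not drawn.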

How the data were processed

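Processed values of 9 RNA sequencing libraries were analysed, 3 per group. Per the labels, the authors used Trim Galore for trimming, STAR for alignment, of buffalo reads too, to cattle assembly UMD3.1, Cufflinks (2.2.1) for assembly and Cuffdiff for FPKM. The deposited circRNA tables give RPM per back-splice junction, and the deposited mRNA table gives linear FPKM. Libraries were made from total RNA with the TruSeq RNA LT kit, whose standard protocol selects poly(A) RNA, which circRNAs lack. The paper states that the protocol of the kit was followed, and does not mention a poly(A) step. The circRNA caller and the reads that RPM is scaled by are not given in the sources used here. In the tables used, 6 columns of buffalo adipose tissue belong to another series and were not used here, nor were lncRNAs. Sequences are not printed.

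In each circRNA column all values above 0 (100%) were whole multiples of the smallest one within 0.01 reads, and this step gave whole reads. The reads derived per library were 35712276 to 65777231, and between 33.7% and 61.9% of the junctions detected in a library had 1 read, which limits precision.

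Members, lists, tests and named genes were chosen with earlier results of these data known. All member junctions are reported. Of the insulin signalling list, genes called in the host fit and the 5 highest hosts per group are named, except for 1 gene that is not reported here but enters the counts, and for likeness the 3 junctions with the highest r. Genes named beyond this rule were chosen after their values were seen. The fit was limma 3.58.1 with a mean-variance trend on log2(RPM + 1), over junctions or per-host sums with at least 2 reads in at least 3 of 6 libraries, with Benjamini-Hochberg adjustment over all of them and a threshold of 0.05. Rows without a host were left out of host sums, and a row with 2 symbols was kept as a host of its own. Alternatives were no trend, no filter, a minimum of 5 reads, a pseudocount of 0.1 and equal junction totals. Others were edgeR 4.0.16 with TMM or with junction totals alone, DESeq2 1.42.0, the replicate block and leaving out each library. The library size in edgeR was the sum of junction reads, or of those with a host in the host fit, not the sequencing depth. The fit was tested on simulated data, where it missed many of the changes put in, so a result that was not called is not shown to be without change. Transcript names came from the circRNA tables and the study's tables of names, which named 6795 of 19917 transcripts.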

Additional observations from a re-analysis of the deposited data

How the results depend on the processing

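The difference of the leading INSR junction kept its direction in all 15 alternatives and passed the threshold in 2 of them, limma without the trend (0.68) and DESeq2 (1.28). The summed INSR junctions passed it in 4 of 15, limma without the trend (0.71), edgeR with TMM (1.33), DESeq2 (1.33) and the replicate block (0.71, adjusted p = 0.028). With each library left out, the values stayed between 0.56 and 0.76 and between 0.60 and 0.79. Without a filter, or with edgeR on junction totals alone, they were not called, and the cause was not tested. Both IGF1R results kept their direction and were not called in 11 alternatives, with no adjusted p for the leading junction in DESeq2. With at least 5 reads, or without cattle muscle 3, cattle adipose 2 or cattle adipose 3, IGF1R had too few reads to be tested. Counts of called junctions, 65 as reported, were 27 without a filter, 120 with at least 5 reads and 123 with the replicate block. They were 164 with edgeR and TMM, 154 with edgeR and junction totals alone, and 129 with DESeq2. With each library left out they ran from 20 to 87. Leaving out cattle muscle 1 (41), 2 (20) or 3 (20) moved the count by over 1.5 times. Counts of called hosts, 101 as reported, were 159 with edgeR and TMM and 167 with edgeR and junction totals alone. They were 29 to 92 with each library left out, the lowest without cattle muscle 3. Of these, only the count without cattle adipose 2 was within 1.5 times of 101. The median of all junctions was 0.01 in limma, 0.12 with edgeR and TMM, 0.15 with DESeq2 and -0.26 with edgeR and junction totals alone. INSR differences are to be read against these. The share of the leading INSR junction differed by 0 points when only junctions with at least 2 reads in at least 3 libraries were counted. INSR junctions detected in cattle muscle fell from 6 to 2 when 2 reads in a library were asked for.

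Same-numbered cattle libraries deviated together with r of 0.24, 0.17 and -0.02, and differently numbered ones with r of -0.22 to 0.04. Numbers 1 and 2 thus gave a higher r than any other pair, and number 3 did not. These values do not settle whether the numbers pair the animals. As the labels do not say so either, the block was kept as an alternative. With the replicate block the leading INSR junction had an adjusted p of 0.087 in limma. Under that block the share of that junction differed by -3.12 points (exact paired permutation test, p = 0.25, the smallest it can give). With each library left out, the share differed by -4.06 to -2.13 points (unpaired exact permutation test, p = 0.1 to 0.2). Few reads limit all IGF1R values and the minor INSR junctions.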
